A study of Homo sapiens and Mus musculus with 36 samples.

Results

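CXCL1, CXCL2, CXCL3, CXCL5, CXCL6 and CXCL8, the chemokines that attract neutrophils, were followed together with CCL20 through every setting of an RNA-seq study of the histone methyltransferase DOT1L. They were taken by gene name, and the list was drawn up with earlier results of these data known. All 7 were listed among 26457 gene symbols in 12 HuH-7 libraries carrying guide RNAs and among 15899 symbols in 6 HuH-7 libraries treated with drug or solvent. The 5 mouse counterparts, Cxcl1, Cxcl2, Cxcl3, Cxcl5 and Ccl20, were listed among 22673 symbols in 18 mouse libraries; mice have no CXCL8. The study held 36 libraries of 4 tumour lines in 17 groups. HuH-7 cells derive from a human hepatocellular carcinoma. The mouse lines were the liver tumour lines Hepa1-6 and Hep53.4 and LLC, from the Lewis lung carcinoma. In each line, cells with either of a pair of guides against DOT1L, sg1 and sg2, labelled as DOT1L knockout, were compared with cells carrying the control guide sgNeg2, labelled wild type, with 2 libraries for each guide. HuH-7 cells of all 3 guides were measured untreated and after interferon (IFN); the labels name no type, dose or duration of it. HuH-7 cells without guides received the DOT1L inhibitor EPZ-5676 (pinometostat) for 7 days, or DMSO, for which no time is labelled, with 3 libraries of each. All lines were cultured tumour cells, and the labels do not say whether knockout lines were single clones or pools, nor whether replicates were separate cultures.

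CXCL1, CXCL2, CXCL3, CXCL5, CXCL6 and CXCL8 are small secreted proteins of the CXC class that carry a glutamate-leucine-arginine motif. They bind CXCR2 on neutrophils, and CXCL6 and CXCL8 also bind CXCR1. CCL20 is a CC chemokine that binds CCR6 on memory T cells, B cells and immature dendritic cells. In hepatocytes and many tumour cells these genes are known targets of NF-kappaB and AP-1, which act downstream of interleukin-1, tumour necrosis factor, interleukin-17 and toll-like receptors. Their mRNAs are short-lived and are degraded with the help of proteins such as ZFP36 and ZC3H12A. DOT1L methylates lysine 79 of histone H3 in the body of transcribed genes.

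The 6 CXC genes lie within 359 kb of human chromosome 4 in hg38, and CCL20 lies on chromosome 2. By GENCODE v29, CXCL8 (chr4:73740506-73743716), CXCL6 (chr4:73836497-73849064) and CXCL1 (chr4:73869393-73871242) are on the plus strand, and CXCL5 (chr4:73995642-73998779), CXCL3 (chr4:74036589-74038807) and CXCL2 (chr4:74097035-74099293) are on the minus strand. CCL20 (chr2:227805739-227817564) is on the plus strand. The longest transcript of each gene has 4 exons. Stretches of 30 bases upstream of the RefSeq start (RefSeq, GRCh38.p14, 97 to 68 bases before it) are shown because letters of an NF-kappaB type element stand there. Any part of these letters in the chemokine levels was not tested. GENCODE v29 places some starts further upstream, and the stretches of CXCL2, CXCL3, CXCL5, CXCL6 and CCL20 lie inside its gene bounds. Each is read 5′ to 3′ on the strand of its gene, and capitals mark GGAATTTCC or, in CCL20, GGGAAAACCC.
CXCL1 (chr4:73869296-73869325, plus): ggatcgatctggaactccgGGAATTTCCct
CXCL2 (chr4:74099263-74099292, minus): gggatcgatctggagctccgGGAATTTCCc
CXCL3 (chr4:74038757-74038786, minus): ggatcgatctggagctccgGGAATTTCCct
CXCL5 (chr4:73998745-73998774, minus): agttcagGGAATTTCCccagcatcccaaag
CXCL6 (chr4:73836581-73836610, plus): gagttcagGGAATTTCCccagcatcccaaa
CXCL8 (chr4:73740472-73740501, plus): aatcgtGGAATTTCCtctgacataatgaaa
CCL20 (chr2:227813745-227813774, plus): gggccagttgatcaatgGGGAAAACCCcat

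The letters GGAATTTCC, searched on both strands, were in the 300-base promoter windows of 6 of the 7 genes and in 162 of 35116 human windows of that length (0.461%). GGGAAAACCC was in the CCL20 window and in 51 of all windows (0.145%). The AP-1 letters TGACTCA were found in the CXCL8 window alone among the 7, and in 4.95% of all windows. ATAAA, starting 31 to 28 bases before the RefSeq start on the strand of the gene, was present in all 7 members and in 3.08% of all windows. Some of these sequences were alike. CXCL1 and CXCL3 had the same base at 90 of the 100 positions before the start, CXCL1 and CXCL2 at 73, CXCL2 and CXCL3 at 67, and CXCL5 and CXCL6 at 91 when shifted by 1 base. CXCL8 and CCL20 had at most 36 such positions with any member. The letters were chosen after the sequences had been seen, and a match is a description of the sequence. The transcripts of CXCL1, CXCL2 and CXCL3 also share sequence. Of their 50-base words, 5.73%, 9.24% and 5.26% occurred in another member, and the other 4 genes shared none. Of 100-base words, 0 were shared by any member. The labels give no read length, so how far reads could be split among these 3 genes is not known.

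Total counts were 19580588 to 22649969 in HuH-7 libraries without IFN, 47594968 to 61227426 with IFN, 48912627 to 58628528 with DMSO or EPZ-5676 and 42637155 to 59686358 in mouse libraries. RNAs without a poly(A) tail took 4.09 to 6.90% of counts in the HuH-7 libraries without IFN and 0.0446 to 0.0575% with IFN, so IFN cannot be told apart from that difference between the libraries. DOT1L transcripts were lower in every knockout group than in its controls, at 32.1 to 40.4 against 73.1 to 75.4 CPM in HuH-7, where CPM is the count scaled by edgeR's TMM factors to a common library size. With EPZ-5676 they were 47.6 to 51.1 CPM against 51.8 to 54.5 CPM. All 9 hepatocyte markers reached 1 CPM in HuH-7. Hep53.4 had part of this programme: 4 of 8 listed markers reached 1 CPM in its control cells, with a sum of 919 to 928 CPM. In Hepa1-6 control cells the sum was 17357 to 17511 CPM. Ttr, Apoa1 and Fgb were at 0 in Hep53.4 control cells, and Alb was at 1.35 CPM. Of 8 lung markers, Nkx2-1, Sftpd, Sftpc and Scgb1a1 were at 0 in LLC control cells and 2 reached 1 CPM, with a sum of 566 to 575 CPM in controls and 621 to 656 CPM in knockout. Of 10 leukocyte markers, PTPRC, MPO and FCGR3B were at 0 in all HuH-7 guide groups, and 3 or 4 reached 1 CPM.

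Before any comparison, the members differed widely in level. Per kilobase of exon, the order in HuH-7 sgNeg2 cells was CCL20 (122 ± 2.02 CPM per kb, SD, n = 2), CXCL5 (36.1 ± 0.702), CXCL1 (11.8 ± 0.950), CXCL2 (4.40 ± 0.0848), CXCL8 (4.31 ± 0.291), CXCL3 (1.55 ± 0.382) and CXCL6 (0.932 ± 0.139). CXCL2 and CXCL8 did not differ beyond their spread. CCL20, CXCL5 and CXCL1 kept these first 3 places in every HuH-7 group. CXCL6 was the lowest per kilobase in sgNeg2 and DMSO cells, and it was the lowest in 5 of the 8 groups in all. In IFN-treated sg1 cells it stood at 10.9 CPM per kb, beside CXCL2 at 10.6 and CXCL3 at 9.75, and in IFN-treated sg2 cells it was again the lowest at 9.68. CCL20 was thus the most abundant of these transcripts in HuH-7 in all 8 groups, and the neutrophil attractants were led by CXCL5.

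All 7 genes were higher in DOT1L knockout than in control HuH-7 cells without IFN. CCL20, the ligand of CCR6, had 102 and 104 CPM in the sgNeg2 libraries, 273 and 278 CPM with sg1, and 259 and 291 CPM with sg2. Its lowest knockout library was far above the highest control, and it rose 2.68-fold, a log2 change of 1.42 ± 0.07 (standard error here and for all log2 changes). The adjusted p of edgeR's quasi-likelihood test was 8.92e-08. CXCL1, a main CXCR2 ligand made by many epithelial cells, had 13.7 and 12.3 CPM in controls, 28.2 and 29.1 CPM with sg1, and 32.8 and 29.6 CPM with sg2. It rose 2.30-fold (log2 1.20 ± 0.11, edgeR adjusted p = 1.33e-05). CXCL5 had 90.4 and 92.9 CPM in controls, 175 and 171 CPM with sg1, and 181 and 208 CPM with sg2. This second most abundant member rose 2.01-fold, a log2 change of 1.01 ± 0.11 (edgeR adjusted p = 5.26e-05). CXCL6, one of the CXCR1 ligands, had 1.89 and 1.53 CPM in controls, 4.76 and 3.83 CPM with sg1, and 4.83 and 5.81 CPM with sg2. Low as it was, it had the largest fold of the 7, at 2.80 (log2 1.48 ± 0.18, edgeR adjusted p = 0.000177). In cultures such as these, more cells of a kind and more RNA per cell cannot be told apart.

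CXCL8, CXCL2 and CXCL3 moved less in these cells. CXCL8, the interleukin-8 of the clinic, had 9.04 and 8.22 CPM in controls, 10.9 and 11.5 CPM with sg1, and 12.8 and 14.98 CPM with sg2. Its groups did not overlap, and the log2 change was 0.54 ± 0.13 (edgeR adjusted p = 0.019). How many of all genes had no overlap was not counted, here or below, so such statements describe the members' libraries alone. CXCL2 had 5.43 and 5.28 CPM in controls against 7.34, 7.33, 7.33 and 8.79 CPM in the knockout libraries, a log2 change of 0.52 ± 0.14 (edgeR adjusted p = 0.0325). CXCL3 had 1.38 and 1.96 CPM in controls, a wide spread, against 2.46, 2.63, 2.73 and 2.47 CPM in knockout (log2 0.62 ± 0.18, edgeR adjusted p = 0.0402). These 3 rises are the less firm ones. CXCL8 lost its call without sgNeg2 replicate 1 or 2 (edgeR adjusted p = 0.106 and 0.259). CXCL2 lost it without either of them (0.197 and 0.258), and also without sg1 replicate 1 (0.0663), sg1 replicate 2 (0.067) or sg2 replicate 2 (0.0654), all as edgeR adjusted p. CXCL3 lost it when any 1 of the 6 libraries was left out (edgeR adjusted p = 0.0541 to 0.432), and with DESeq2 (adjusted p = 0.0671), no filter on low counts (0.0577) or a fit of these 6 libraries alone (0.0699). Among all 16448 genes tested, 11.3% were called in either direction, 6.95% higher and 4.38% lower, against 7 of 7 higher here. The median log2 change of the 7 was 1.01, and that of all genes 0.003.

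**Figure D1:**
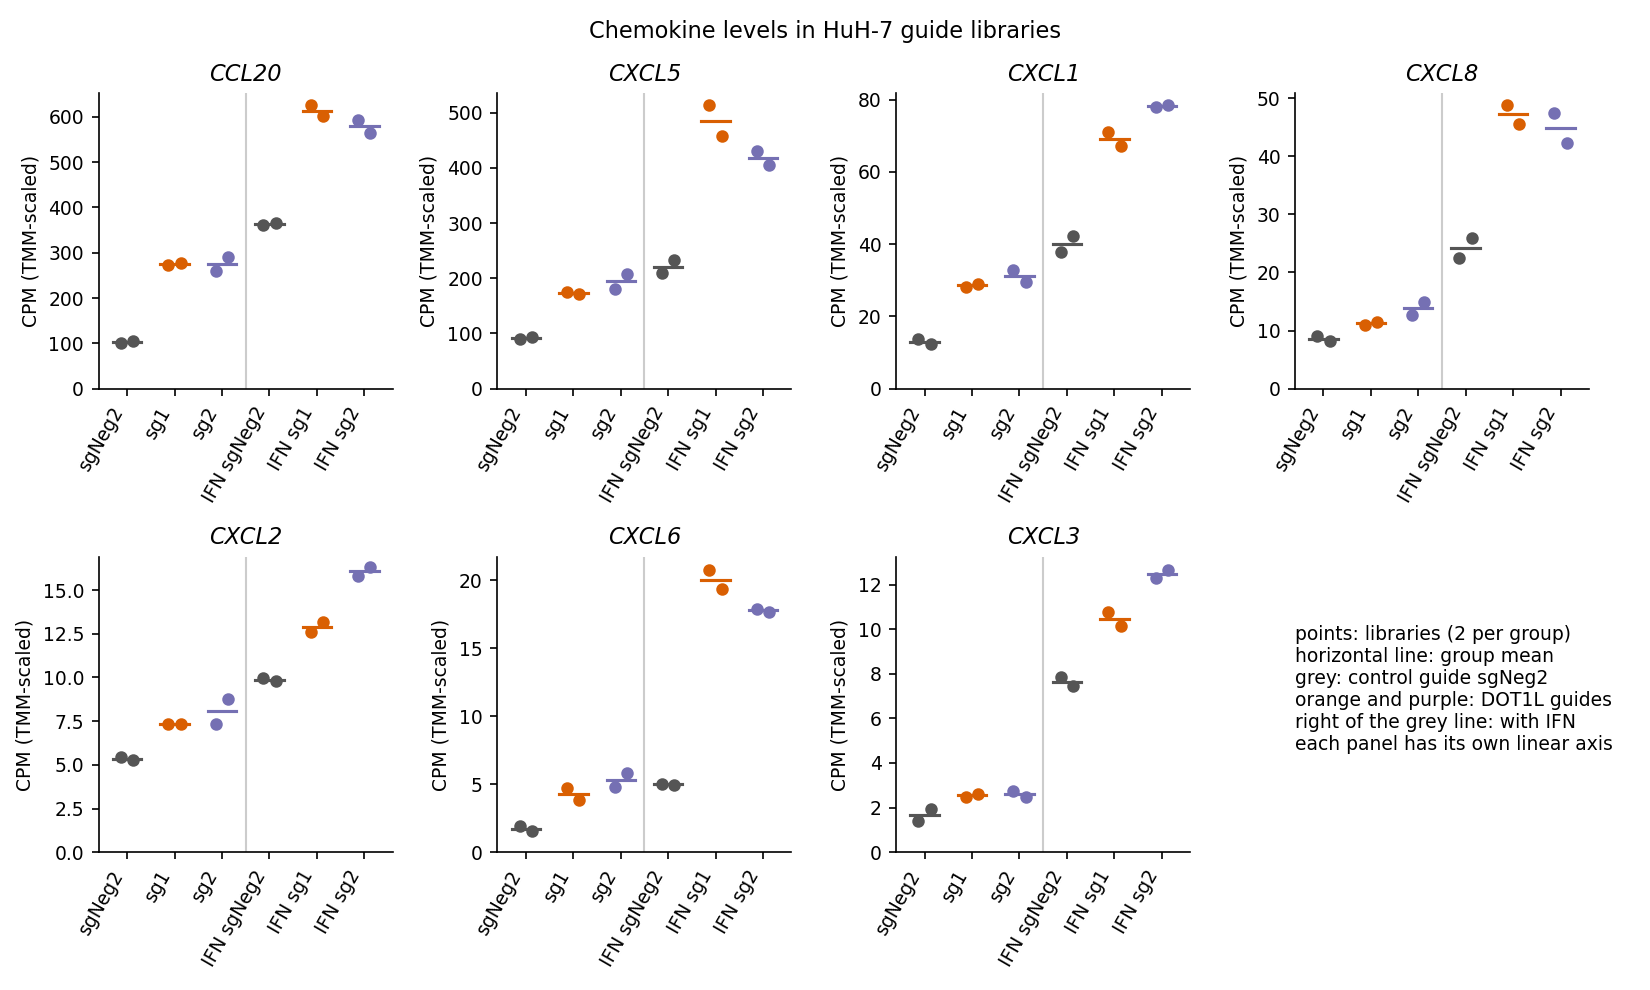
Levels of the 7 chemokine transcripts in the 12 HuH-7 guide libraries, in TMM-scaled CPM on a linear axis for each gene, with points for libraries and lines for group means. In every panel the knockout libraries lie above the control libraries of the same setting, and each guide's libraries with IFN lie above its libraries without; CCL20 runs from 102 to 625.2 CPM.

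The marker lists moved too. In knockout HuH-7 cells the summed hepatocyte markers were 13308 to 15433 CPM against 16368 to 16419 CPM in controls, with 9 of 9 markers present in both. The summed leukocyte list was 170.0 to 204 CPM against 99.2 to 102 CPM, with PTPRC, MPO and FCGR3B at 0 in both. The neutrophil list was 1.2752 to 2.0091 CPM in knockout and 0.68123 to 1.0334 CPM in controls, with 0 of 2 tested markers called. The summed fibroblast list was 10.8 to 15.3 CPM in knockout and 3.06 to 6.51 CPM in controls. The lung list was 26.096 to 28.047 CPM against 10.248 to 13.71 CPM. The endothelial list was 16.003 to 18.372 CPM against 8.612 to 9.665 CPM. With IFN the neutrophil list was 1.5015 to 2.32 CPM in knockout and 0.389 to 0.6857 CPM in controls. There 2 of 2 tested neutrophil markers were called higher. The part of these lists in the chemokine values was not tested.

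With IFN, knockout cells again had more of all 7 transcripts than sgNeg2 cells under the same treatment, where 12.4% of all genes tested were called, 7.11% higher and 5.27% lower. CXCL6 showed the widest gap, with 5.01 and 4.95 CPM in controls, 20.7 and 19.3 CPM with sg1, and 17.9 and 17.7 CPM with sg2. It rose 3.80-fold (log2 1.92 ± 0.16, edgeR adjusted p = 3.49e-06). CXCL5 had 209 and 232 CPM in controls, 513 and 458 CPM with sg1, and 431 and 405 CPM with sg2. It rose 2.05-fold (log2 1.03 ± 0.10, edgeR adjusted p = 2.55e-05). CXCL8 had 22.5 and 25.9 CPM in controls, 48.7 and 45.6 CPM with sg1, and 47.4 and 42.3 CPM with sg2. It rose by 0.93 on the log2 scale (± 0.12, edgeR adjusted p = 0.000188). CXCL1 had 37.8 and 42.4 CPM in controls against 70.9, 67.2, 78.0 and 78.4 CPM in the knockout libraries, a log2 change of 0.88 ± 0.10 (edgeR adjusted p = 5.87e-05). CCL20 had 361 and 366 CPM in controls, 625.2 and 601 CPM with sg1, and 594 and 565 CPM with sg2. Its fold of 1.64 (log2 0.71 ± 0.07, edgeR adjusted p = 1.16e-05) was smaller than that without IFN. The median log2 change of the 7 was 0.88, and that of all genes -0.06.

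CXCL2 and CXCL3 were the least changed members with IFN. CXCL2 had 9.95 and 9.80 CPM in controls against 12.6, 13.2, 15.8 and 16.3 CPM in knockout (log2 0.55 ± 0.13, edgeR adjusted p = 0.0141). CXCL3 had 7.85 and 7.45 CPM in controls against 10.8, 10.2, 12.3 and 12.7 CPM in knockout (log2 0.59 ± 0.14, edgeR adjusted p = 0.0147). Neither gene's groups overlapped. Both calls were lost without IFN sgNeg2 replicate 1 or 2, where the edgeR adjusted p was 0.0989 and 0.116 for CXCL2, and 0.0867 and 0.134 for CXCL3. In these libraries the leukocyte list summed to 383 to 419.7 CPM in knockout and 245 to 252 CPM in controls.

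CCL20 was the member whose knockout effect differed with IFN. The interaction term, the knockout effect with IFN minus that without, was -0.71 ± 0.09 on the log2 scale (edgeR adjusted p = 0.00304), in a test that called 0.298% of all genes lower. It was -0.60 ± 0.10 (edgeR adjusted p = 0.0117) with RNAs lacking a poly(A) tail left out and -0.70 (adjusted p = 0.00315) with the IFN libraries thinned. Without sgNeg2 replicate 2 it was -0.62 and no longer called (edgeR adjusted p = 0.104). For the other 6 genes the interaction was not called: it was -0.33 ± 0.14 for CXCL1 (edgeR adjusted p = 0.34), 0.44 ± 0.24 for CXCL6 (0.46) and 0.39 ± 0.18 for CXCL8 (0.371). CXCL2 (0.03 ± 0.19, edgeR adjusted p = 0.98), CXCL3 (-0.04 ± 0.22, 0.976) and CXCL5 (0.03 ± 0.14, 0.967) had values near 0. For CXCL2, CXCL3 and CXCL5 the sign of this term changed with the scaling, the guide or the library left out.

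**Figure D2:**
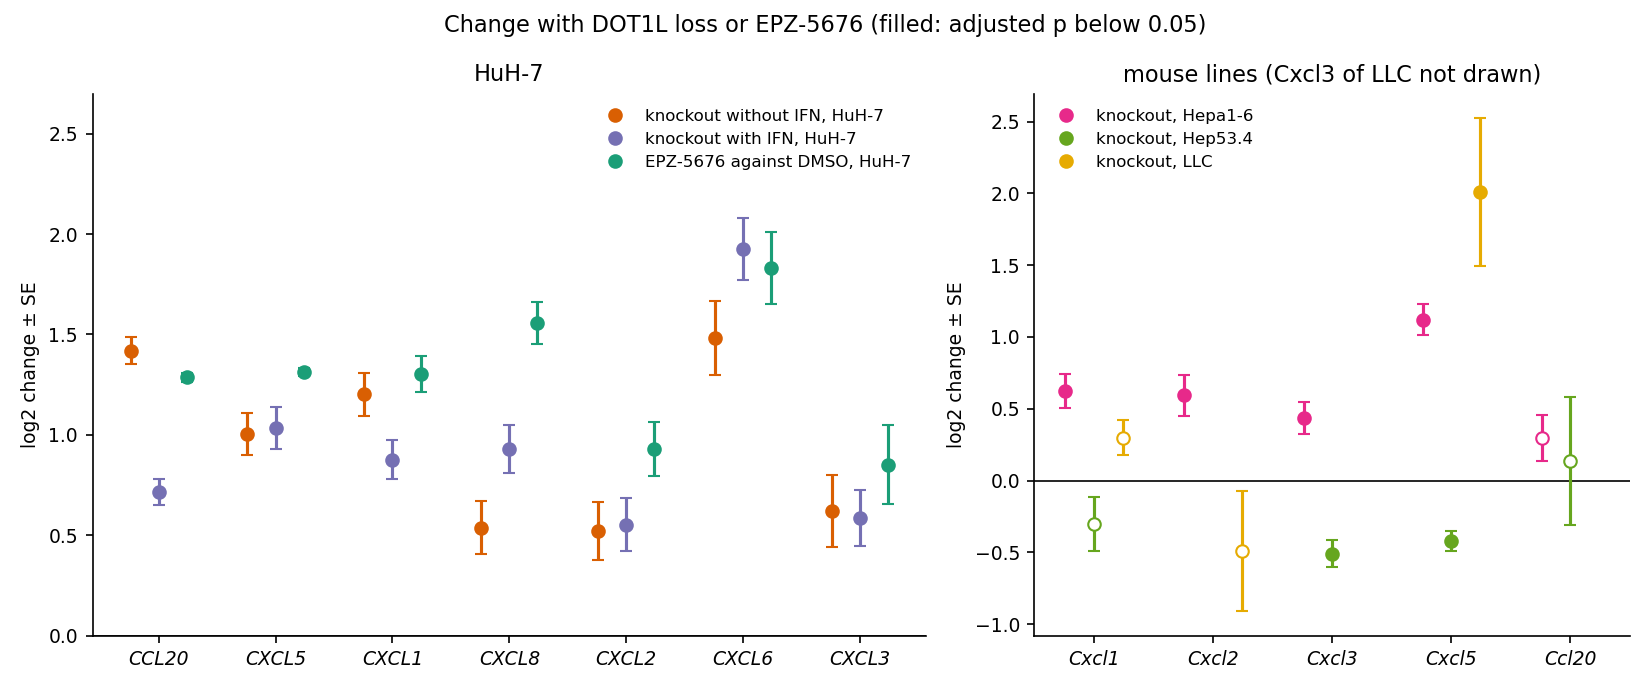
Log2 changes (points) with standard errors (bars) for HuH-7 knockout without IFN, knockout with IFN and EPZ-5676 at left, and for knockout in the 3 mouse lines at right; filled points had an adjusted p below 0.05. All HuH-7 values lie above 0, with CXCL6 highest at 1.92, while Cxcl3 and Cxcl5 lie above 0 in Hepa1-6 and below 0 in Hep53.4; Cxcl3 of LLC is not drawn because its control level rests on 2 counts.

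IFN libraries had more of each of the 7 transcripts than libraries without IFN, in control and in knockout cells. In sgNeg2 cells, where 67.8% of all genes tested were called with IFN, 33% higher and 34.7% lower, CXCL3 had the largest fold, 4.58 (log2 2.19 ± 0.19, edgeR adjusted p = 3.35e-07), from 1.67 to 7.65 CPM. CCL20 rose 3.53-fold (log2 1.82 ± 0.08, edgeR adjusted p = 5.29e-10), and CXCL1 rose 3.08-fold. CXCL2 had the smallest log2 change, 0.88 ± 0.16 (edgeR adjusted p = 0.00027). The median of the 7 was 1.54, and that of all genes -0.06. In knockout cells, where 78.6% of all genes were called, 36.4% higher and 42.2% lower, all 7 rose as well, from 0.91 ± 0.11 for CXCL2 to 2.16 ± 0.13 for CXCL3 on the log2 scale (edgeR adjusted p = 4.05e-06 and 3.52e-09). CCL20 rose 2.16-fold there (log2 1.11 ± 0.05). The choice of control cells moved these values. Against the DMSO libraries, which match the IFN libraries in depth and in RNAs without a poly(A) tail but carry no guide, all 7 were still called. CXCL5 then rose by 0.57 ± 0.09 on the log2 scale (edgeR adjusted p = 0.000102) in place of 1.27 ± 0.12, and CXCL6 by 0.85 ± 0.21 (0.00281) in place of 1.54 ± 0.20. CXCL1 rose by 2.49 in place of 1.62, and CXCL8 by 2.47 in place of 1.49. CXCL2 rose by 1.42, CXCL3 by 1.99 and CCL20 by 1.49 in that comparison.

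After inhibition of DOT1L with EPZ-5676 for 7 days, all 7 genes were higher than with DMSO. Of all 15023 genes tested, 33.7% were called, 15.1% higher and 18.6% lower. No member's groups overlapped, but the share of all genes without overlap was not counted. CXCL5 had 148, 142 and 145 CPM with DMSO and 360.1, 359.9 and 359.8 CPM with EPZ-5676. The 2.49-fold rise (log2 1.31 ± 0.02, edgeR adjusted p = 3.05e-58) had, with that of CCL20, the smallest standard errors of the 7. CCL20 had 129, 124 and 124 CPM with DMSO and 310.6, 304 and 305 CPM with EPZ-5676, a 2.44-fold rise (log2 1.29 ± 0.02, edgeR adjusted p = 7.68e-56). CXCL8 had 4.08, 4.61 and 4.02 CPM with DMSO and 12.44, 12.44 and 12.48 CPM with EPZ-5676. It rose 2.94-fold (log2 1.56 ± 0.11, edgeR adjusted p = 8.23e-21), beside 1.45-fold in the knockout without IFN. CXCL6 had 2.63, 3.61 and 1.82 CPM with DMSO and 10.2, 8.77 and 9.64 CPM with EPZ-5676. As in knockout cells it had the largest fold, 3.56 (log2 1.83 ± 0.18, edgeR adjusted p = 3.61e-07).

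CXCL1, CXCL2 and CXCL3 also rose under EPZ-5676 without overlap. CXCL1 had 7.76, 5.90 and 7.05 CPM with DMSO and 15.6, 18.1 and 17.4 CPM with EPZ-5676 (log2 1.30 ± 0.09, edgeR adjusted p = 8e-20). CXCL2 had 3.74, 3.45 and 3.57 CPM with DMSO and 6.36, 6.89 and 7.25 CPM with the inhibitor (log2 0.93 ± 0.13, edgeR adjusted p = 2.33e-08). CXCL3 had 1.33, 2.39 and 1.89 CPM with DMSO and 3.67, 2.86 and 3.58 CPM with EPZ-5676 (log2 0.85 ± 0.20, edgeR adjusted p = 0.000355). No call of the 7 was lost under any alternative or with any library left out. The median log2 change of the 7 was 1.30, and that of all genes 0.01. The drug and the knockout were measured in separately scaled libraries, and the difference between them was not tested. The summed hepatocyte markers were 15433 to 15496 CPM with EPZ-5676 and 17336 to 17456 CPM with DMSO, and the leukocyte list was 249 to 255 CPM against 155 to 161 CPM; their part was not tested.

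**Figure D3:**
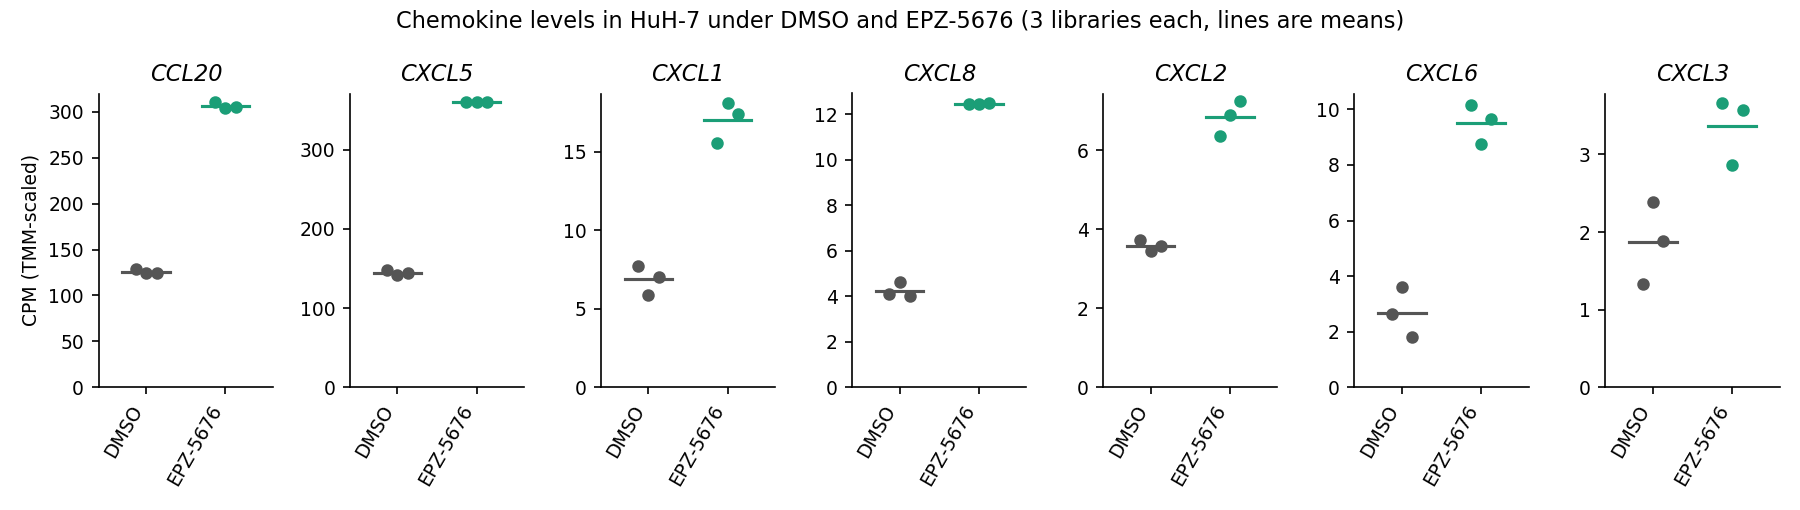
Levels of the 7 transcripts in HuH-7 with DMSO and with EPZ-5676, in TMM-scaled CPM on a linear axis for each gene, with points for the 3 libraries of each group and lines for means. All EPZ-5676 points lie above all DMSO points, from CXCL3 at 2.86 against at most 2.39 CPM to CXCL5 at about 360.1 against at most 148 CPM.

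In mouse cells the chemokines did not move one way. Levels below were scaled over all 18 mouse libraries, and the tests within a line over its own 6. In Hepa1-6, where 32.8% of 12493 genes tested were called, 14.5% higher and 18.3% lower in knockout, 4 of the 5 members rose. Cxcl5, whose mouse product also binds Cxcr2, had 33.5 and 34.6 CPM in controls, 66.3 and 65.0 CPM with sg1, and 79.2 and 83.3 CPM with sg2. It rose 2.17-fold (log2 1.12 ± 0.11, edgeR adjusted p = 5.49e-05). Cxcl1 had 10.6 and 8.79 CPM in controls, 14.0 and 13.3 CPM with sg1, and 17.5 and 14.9 CPM with sg2 (log2 0.63 ± 0.12, edgeR adjusted p = 0.000261). For Cxcl5 and Cxcl1, and for Cxcl2 and Cxcl3 below, no knockout library reached down to the controls. Cxcl2 had 3.99 and 4.69 CPM in controls against 5.97, 6.72, 6.59 and 6.68 CPM in knockout (log2 0.59 ± 0.14, edgeR adjusted p = 0.00263). Cxcl3 had 40.5 and 42.6 CPM in controls, 51.8 and 47.5 CPM with sg1, and 60.9 and 62.8 CPM with sg2 (log2 0.44 ± 0.11, edgeR adjusted p = 0.017). Both calls depended on the controls. Cxcl2 had an edgeR adjusted p of 0.0703 without sgNeg2 replicate 1 and 0.0778 in the joint mouse fit, and Cxcl3 had 0.147 and 0.0852 without sgNeg2 replicate 1 and 2. Ccl20 had 3.52 and 4.25 CPM in controls and 4.16, 4.77, 4.89 and 5.07 CPM in knockout, with overlap and no call (log2 0.29 ± 0.16, edgeR adjusted p = 0.173). The median of the 5 was 0.59 on the log2 scale, and that of all genes 0.01. In this line the neutrophil list summed to 10.6 to 16.8 CPM in knockout and 6.22 to 6.38 CPM in controls, with Csf3r and Mpo at 0, and the hepatocyte markers to 12213 to 12689 CPM against 17357 to 17511 CPM, and the part of these lists was not tested.

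In Hep53.4 knockout went with lower levels of Cxcl5 and Cxcl3. Dot1l transcripts fell less in this line, by log2 -0.67 ± 0.09, than in Hepa1-6 (-1.48 ± 0.08) or LLC (-1.02 ± 0.06). The difference of Hepa1-6 minus Hep53.4 was -0.83 ± 0.13 (edgeR adjusted p = 7.27e-06). Its part in the chemokine values was not tested. Cxcl5 had 25.01 and 24.14 CPM in controls, 17.8 and 18.4 CPM with sg1, and 18.3 and 19.2 CPM with sg2. It fell by 0.42 ± 0.07 on the log2 scale (edgeR adjusted p = 1.46e-05). Cxcl3 had 14.5 and 13.5 CPM in controls, 9.12 and 10.4 CPM with sg1, and 10.2 and 9.72 CPM with sg2, and fell by 0.51 ± 0.09 (edgeR adjusted p = 4.17e-05). All 4 knockout libraries lay below both controls for these 2 genes, in a line where 39.2% of 12227 genes tested were called, 19.4% higher and 19.7% lower. Cxcl1 had 2.57 and 3.07 CPM in controls and 2.17, 2.10, 2.71 and 2.18 CPM in knockout, which overlapped (log2 -0.30 ± 0.19, edgeR adjusted p = 0.212). Ccl20, at 0.578 and 0.438 CPM in controls and 0.515, 0.807, 0.434 and 0.456 CPM in knockout, was not called either (log2 0.14 ± 0.45, edgeR adjusted p = 0.838). Cxcl2 was nearly silent, with 0 and 4 counts in controls and 2, 2, 0 and 0 counts in knockout, and was not tested. The median of the 4 tested was -0.36, and that of all genes -0.003. The summed endothelial list was 29.3 to 33.6 CPM in Hep53.4 knockout and 50.7 to 51.9 CPM in controls, and its part was not tested.

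LLC cells had little of most members. Cxcl1, the most abundant, had 5.02 and 5.25 CPM in controls, 6.32 and 5.58 CPM with sg1, and 7.10 and 6.66 CPM with sg2. The groups did not overlap, but the log2 change of 0.30 ± 0.12 missed the threshold (edgeR adjusted p = 0.066). It passed with sg2 alone (0.40, edgeR adjusted p = 0.0212), with guides as separate groups (0.0459) and without sg1 replicate 2 (0.0308). Cxcl5 had 10 and 7 counts in controls against 27, 54, 34 and 32 in knockout, and rose 4.02-fold (log2 2.01 ± 0.51, edgeR adjusted p = 0.00494). This call was lost without sgNeg2 replicate 2 (log2 1.70, edgeR adjusted p = 0.0708). Cxcl3 had 0 and 2 counts in controls and 12, 36, 27 and 21 in knockout, a ratio of 24.2 at equal depth with a 95% counting interval of 6.52 to 203 (edgeR adjusted p = 0.00109). Cxcl3 and Cxcl5 were thus called higher at levels below 1 CPM in every LLC library. Their control libraries by themselves did not meet the filter on low counts, and the knockout libraries carried both genes into the test. These calls therefore describe the counts and are no further support for a rise. Of 12225 genes tested in LLC, 33.5% were called, 16% higher and 17.5% lower. Cxcl2 had 0.392 and 1.11 CPM in controls and 0.380, 0.453, 0.568 and 0.771 CPM in knockout (log2 -0.49 ± 0.42, edgeR adjusted p = 0.391). Ccl20, at most 0.259 CPM, was not tested. No median is given for this line, since the fitted change of Cxcl3 rests on 2 control counts. The summed fibroblast list was 1343 to 1367 CPM in LLC knockout and 938 to 961 CPM in its controls, and its part in these values was not tested.

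**Figure D4:**
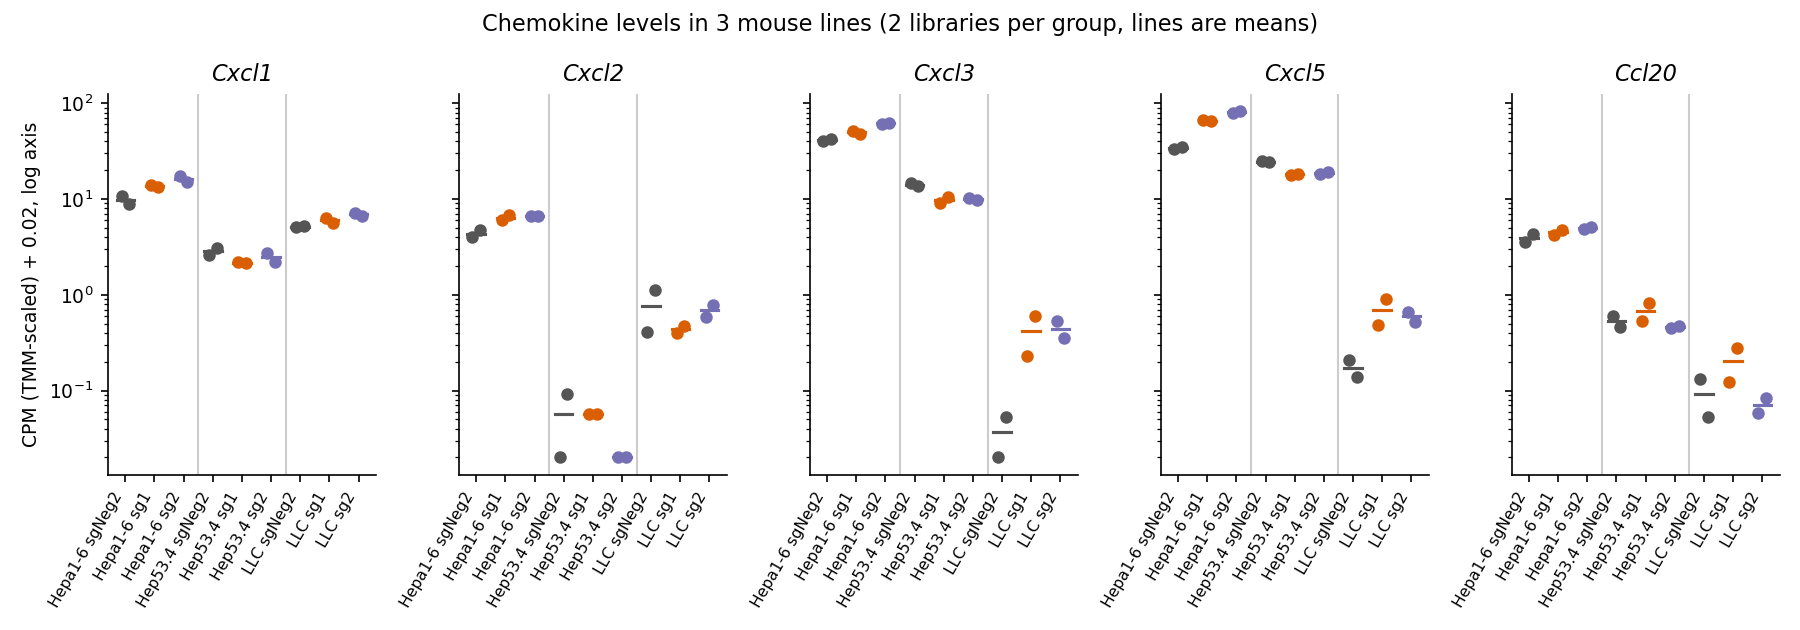
Levels of the 5 mouse transcripts in the 9 groups of Hepa1-6, Hep53.4 and LLC, as TMM-scaled CPM plus 0.02 on a shared log axis, with points for libraries (2 per group) and lines for means. Cxcl5 spans from 0.117 CPM in LLC controls to 83.3 CPM in Hepa1-6 knockout, and the Hep53.4 knockout groups lie below their controls for Cxcl3 and Cxcl5.

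The knockout effect itself differed between the mouse lines for some members. These 3 comparisons share their samples and are given side by side. Between Hepa1-6 and Hep53.4 the difference was 1.53 ± 0.13 on the log2 scale for Cxcl5 (edgeR adjusted p = 1.44e-10), 0.93 ± 0.16 for Cxcl3 (4.47e-05) and 0.92 ± 0.21 for Cxcl1 (0.00139), in a test that called 10.2% of 14195 genes higher. Cxcl2 (edgeR adjusted p = 0.498) and Ccl20 (0.9) were not called. Between Hep53.4 and LLC, where 15.8% of genes were called lower, it was -2.45 ± 0.38 for Cxcl5 (edgeR adjusted p = 9.48e-06) and -0.62 ± 0.22 for Cxcl1 (0.0292), and Cxcl3 was called lower as well (8.75e-06). The call of Cxcl1 was lost with sg2 alone (edgeR adjusted p = 0.0588) and without Hep53.4 sgNeg2 replicate 2 (0.192), Hep53.4 sg1 replicate 2 (0.0516), LLC sgNeg2 replicate 1 (0.0935) or 2 (0.0578), or LLC sg2 replicate 1 (0.0512). Between Hepa1-6 and LLC, where 15.3% were called lower, Cxcl3 was the member that passed (edgeR adjusted p = 0.000477). Cxcl5 (-0.92 ± 0.42, edgeR adjusted p = 0.112) and Cxcl2 (1.06, 0.0655) did not. They passed with no filter on low counts (edgeR adjusted p = 0.0482 for Cxcl5 and 0.0198 for Cxcl2) and with sg1 alone (0.0136 and 0.0258), and Cxcl2 also without LLC sgNeg2 replicate 1 (0.00737) or LLC sg2 replicate 2 (0.028).

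Control cells of the 3 mouse lines already differed in these transcripts. Hepa1-6 had the highest level of each of the 5. Against Hep53.4, where 38.2% of genes were called higher, its log2 excess was 1.78 ± 0.17 for Cxcl1, 1.57 ± 0.13 for Cxcl3, 0.47 ± 0.10 for Cxcl5 and 2.93 ± 0.36 for Ccl20. Cxcl2 had 443 against 4 counts, a ratio of 115 with a 95% counting interval of 44.5 to 423. Against LLC, where 41% were called higher, the excess was 0.92 for Cxcl1, 2.51 for Cxcl2, 7.80 ± 0.21 for Cxcl5 and 5.73 ± 0.49 for Ccl20, and Cxcl3 had 4256 against 2 counts. Hep53.4 had more Cxcl5 (7.33 ± 0.21), Cxcl3 and Ccl20 (2.80 ± 0.61) than LLC, where 39.6% of genes were called higher and 38.5% lower, and less Cxcl1 (-0.86) and Cxcl2. All 5 passed edgeR's test in each of these 3 comparisons. For Cxcl2 in Hep53.4 and for Cxcl3, Cxcl5 and Ccl20 in LLC, control cells had 4, 2, 17 and 8 counts. These genes entered the joint fit through groups where they were higher, so their passes record which line had the transcript.

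Most members were not called between the guides. In HuH-7 without IFN edgeR called 0 of the 7 between sg2 and sg1 (2 at an unadjusted p below 0.05, and 0 with DESeq2), and 0.0304% of all genes. CXCL5 (log2 0.27, edgeR adjusted p = 0.0416) and CXCL8 (0.42, 0.0128) were called without sg2 replicate 1. With IFN, where 34.4% of all genes were called between the guides, CXCL2 was higher with sg2 (log2 0.32 ± 0.11, edgeR adjusted p = 0.0451) and CXCL5 lower (-0.22 ± 0.07, 0.0316). These 2 of 7 are near the share of all genes. DOT1L itself had 66.8 and 66.7 CPM with sg2 and 42.5 and 46.5 CPM with sg1 under IFN. This guide difference (log2 0.58 ± 0.07, edgeR adjusted p = 0.000202) was not tested for a part in the chemokine values. The call of CXCL2 was lost with DESeq2 (adjusted p = 0.0549), with no filter (0.0734) and with any 1 of the 4 libraries left out (0.0935 to 0.186). That of CXCL5 was lost without IFN sg1 replicate 1 (0.283), IFN sg2 replicate 1 (0.0532) or IFN sg2 replicate 2 (0.21). In Hepa1-6, Cxcl3 (log2 0.31 ± 0.06, edgeR adjusted p = 0.00164) and Cxcl5 (0.30 ± 0.05, 0.000698) were higher with sg2, where 2.79% of all genes were called in either direction. Cxcl3 lost its call without sg1 replicate 2 (edgeR adjusted p = 0.11). In Hep53.4 and LLC, where 2.9% and 6.01% of all genes were called between guides, edgeR called 0 of the 4 members tested in each (0 at an unadjusted p below 0.05, and 0 with DESeq2).

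Lists of other genes were then counted, against the share of all genes tested that was called. That share was 6.95% higher and 4.38% lower in HuH-7 knockout without IFN, 7.11% and 5.27% with IFN, and 15.1% and 18.6% under EPZ-5676. It was 14.5% and 18.3% in Hepa1-6, 19.4% and 19.7% in Hep53.4, and 16% and 17.5% in LLC. Of the receptors, CXCR1 and ACKR1 were at 0 in HuH-7 without IFN, and CXCR2 was too low to test. CCR6, the receptor of CCL20, had 13.4 CPM in controls and 14.3 CPM in knockout and was not called (log2 0.10 ± 0.14, edgeR adjusted p = 0.722). The decoy receptor ACKR2, at 2.40 and 1.97 CPM, was not called either. These were the 2 receptors of the list with enough counts to test, where 11.3% of all genes tested were called in either direction. In LLC the scavenging receptor Ackr3 rose with knockout, from 4.49 to 8.64 CPM (log2 0.92, edgeR adjusted p = 4.9e-06).

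Of other chemokines, 4 of 9 tested were called higher in HuH-7 knockout cells without IFN. CCL28, which attracts CCR10-bearing lymphocytes, went from 2.80 to 8.76 CPM (log2 1.64 ± 0.17, edgeR adjusted p = 4.6e-05). CXCL10, the interferon-induced ligand of CXCR3, went from 3.81 to 7.62 CPM (log2 1.00, edgeR adjusted p = 8.2e-05), and CXCL11 and CCL2, named after their values were seen, stayed below 1 CPM. With IFN 7 of 9 were higher. Among them CX3CL1, the membrane-bound fractalkine, went from 44.9 to 93.0 CPM (log2 1.05 ± 0.16, edgeR adjusted p = 0.00054). Under EPZ-5676, CXCL10 (log2 1.87), CCL28 (1.03) and CX3CL1 (0.47) rose, 3 of 4 tested. In mouse cells its counts were nearer to the shares of all genes. It had 3 higher and 2 lower of 9 in Hepa1-6, with Cxcl16 at 0.33 and Ccl5 at -0.42, and 3 higher and 1 lower of 10 in Hep53.4. There Ccl7, a monocyte attractant, went from 0.340 to 2.04 CPM (edgeR adjusted p = 6.5e-07). In LLC 2 of 9 rose, Ppbp (log2 0.81 ± 0.17), a further CXCR2 ligand, and Ccl7 (0.44). The calls of Ccl5 in Hepa1-6 (edgeR adjusted p = 0.115) and Ccl7 in LLC (0.0844) were lost without sgNeg2 replicate 1 of their line, and Ccl7 also in the joint mouse fit (0.0625).

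Of the upstream cytokines and receptors, 1 of 15 was called higher in HuH-7 knockout cells without IFN, a share near that of all genes. It was TLR2, the toll-like receptor for bacterial lipoproteins, from 0.385 to 1.46 CPM (log2 1.91 ± 0.36, edgeR adjusted p = 0.004), and its call was lost without sgNeg2 replicate 1 (0.0876). With IFN 4 were higher and 1 lower. IL1R1, the signalling receptor of interleukin-1, went from 8.26 to 18.1 CPM (log2 1.13, edgeR adjusted p = 1.5e-05), TLR2 by 2.07, and IRAK1 fell by 0.45. Under EPZ-5676 the list had 4 higher and 3 lower of 15, with IL1R1 at 0.36 and IRAK1 at -0.39. The medians of this list in HuH-7 were -0.02, 0.08 and 0.00 on the log2 scale in these 3 comparisons. In the mouse lines it had 2 higher and 2 lower of 16 in Hepa1-6, 2 higher and 3 lower of 15 in Hep53.4, and 5 higher and 2 lower of 15 in LLC. Tlr4, the endotoxin receptor, rose in Hepa1-6 (0.40), Hep53.4 (0.16) and LLC (0.50).

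Of the NF-kappaB factors and their feedback genes, 1 of 18 rose in HuH-7 knockout without IFN. It was TNFAIP3, the ubiquitin-editing inhibitor A20, from 44.4 to 69.6 CPM (log2 0.65 ± 0.08, edgeR adjusted p = 0.00011). With IFN 4 of 18 rose: TNFAIP3 (1.03 ± 0.08), BIRC3 (0.82 ± 0.15), NFKBIA (0.70) and NFKBIZ (0.28). The call of BIRC3 was lost without IFN sgNeg2 replicate 1 (edgeR adjusted p = 0.0703). Under EPZ-5676, 9 rose and 1 fell, with BIRC3 at 0.94 ± 0.07, TNFAIP3 at 0.66 ± 0.04 and NFKBIA, the inhibitor IkappaB-alpha, at 0.58. The list medians were -0.003, 0.14 and 0.12 in these comparisons. In Hepa1-6, 7 of the 18 fell, among them Rel (-0.64) and Nfkb2 (-0.26), while Cxcl1, Cxcl2, Cxcl3 and Cxcl5 were called higher there. In Hep53.4 there were 5 higher and 7 lower, and in LLC 1 higher, Traf1 (0.42). Rel lost its call without Hepa1-6 sgNeg2 replicate 2 (edgeR adjusted p = 0.104) and with sg2 alone (0.0565). Traf1 in LLC lost it without either sgNeg2 replicate (0.0641 and 0.265), without either sg1 replicate (0.0846 and 0.054), with sg2 alone (0.137), in the joint mouse fit (0.137) and with DESeq2 (0.0666).

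AP-1 and C/EBP factors did not share 1 direction. In HuH-7 knockout without IFN, FOSL2 (-0.63) and FOS (-0.51) fell and ATF3 (0.62) rose, of 12 tested. With IFN, JUN (0.52) and ATF3 (0.50) rose and FOSL2 fell by 0.54, and under EPZ-5676 JUN (0.52) and ATF3 (0.70) were among 4 that rose and FOSL2 (-0.35) among 2 that fell. In Hepa1-6, 5 of 12 fell, with Egr1 at -0.45, and Atf3 (0.41) rose. LLC had Fos up at 1.35 and Cebpb down at -0.73, the latter with an edgeR adjusted p of 0.172 in the joint mouse fit. ATF3 lost its call without sgNeg2 replicate 2 (edgeR adjusted p = 0.0933). With IFN, FOSL2 lost it without IFN sgNeg2 replicate 2 (0.129) and in the fit of 6 libraries (0.0776), and JUN without IFN sgNeg2 replicate 1 (0.0554).

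Of the 6 factors that bind or cut chemokine mRNAs, ZC3H12A, the endonuclease regnase-1, rose in all 3 HuH-7 comparisons of DOT1L loss or inhibition. It went from 27.4 to 47.1 CPM without IFN (log2 0.78 ± 0.14, edgeR adjusted p = 0.0027), from 53.3 to 120 CPM with IFN (1.17 ± 0.14, 7.5e-05) and from 17.8 to 33.1 CPM with EPZ-5676 (0.89 ± 0.06, 4.7e-20). The first of these calls was lost without sgNeg2 replicate 2 (edgeR adjusted p = 0.0585). Zc3h12a also rose in Hepa1-6, from 13.5 to 21.4 CPM (0.68 ± 0.10, edgeR adjusted p = 1.1e-05), where Zfp36 (-0.29), Zfp36l1 (-0.38) and Zfp36l2 (-0.26) fell. In Hep53.4, Zfp36 rose (0.52) and in LLC it fell (-0.45), with an edgeR adjusted p of 0.147 without LLC sgNeg2 replicate 1.

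The next list held granulocyte factors and acute phase partners. In HuH-7 knockout without IFN, CSF1, a macrophage growth factor, went from 20.8 to 51.9 CPM (log2 1.32 ± 0.11, edgeR adjusted p = 1.1e-05) and LCN2, an iron-binding acute phase protein, from 28.7 to 62.3 CPM (1.12 ± 0.15, 0.00028). SAA2 (0.36) rose as well and LIF (-0.86) fell, of 10 tested. With IFN 5 of 10 rose, among them SAA1 (1.24 ± 0.13), LCN2 (1.10) and CSF1 (0.92), and under EPZ-5676, 5 of 9 rose, with SAA2 at 1.31 ± 0.06 and SAA1 at 1.24 ± 0.07. The list medians were 0.45, 0.95 and 0.71 on the log2 scale. In Hepa1-6, 4 of 9 were lower, among them Csf1 at -0.31 and Lcn2 at -0.18, and S100a9 (1.07 ± 0.17) was higher. Hep53.4 had 1 higher and 2 lower of 5, and LLC 3 higher of 5, with Lif at 0.78 and Csf1 at 0.25. The call of Lif in LLC was lost without sgNeg2 replicate 1 (edgeR adjusted p = 0.122).

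The genes around the CXC cluster were taken next. Of the 8 tested neighbours in HuH-7, 4 rose and 1 fell with knockout without IFN. PARM1, on the far side of the cluster, went from 20.8 to 41.4 CPM (log2 0.99 ± 0.10, edgeR adjusted p = 3.6e-05), AFP rose by 0.82, and ALB, its neighbour, fell by 0.42. RASSF6, which lies next to CXCL8, went from 2.87 to 7.37 CPM (edgeR adjusted p = 0.013), and its call was lost without sgNeg2 replicate 1 or 2 (0.118 and 0.148). With IFN 4 rose, PARM1 by 1.57 ± 0.11 and RASSF6 by 1.33 ± 0.33, and under EPZ-5676, 5 rose and 1 fell, with both genes at 0.68. The call of RASSF6 with IFN was lost without IFN sgNeg2 replicate 1 (edgeR adjusted p = 0.222) and in the fit of 6 libraries (0.105). In sgNeg2 cells IFN libraries had less PARM1 (-2.10 ± 0.12) and RASSF6 (-1.79 ± 0.38), 2 of the 4 neighbours called lower there, while all 6 CXC members were called higher. Among the genes around CCL20, TM4SF20 (0.98 ± 0.23) rose and SLC19A3 (-0.31), the nearest upstream gene of the list, fell in knockout without IFN. TM4SF20 was lost without sgNeg2 replicate 1 or 2 (edgeR adjusted p = 0.202 and 0.0819), and SLC19A3 likewise (0.148 and 0.0797). In Hepa1-6 the CXC neighbours had 3 higher and 3 lower of 10, with Afm at 1.13 and Areg at 0.68. The call of Areg was lost without Hepa1-6 sgNeg2 replicate 1 (edgeR adjusted p = 0.0873).

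**Figure D5:**
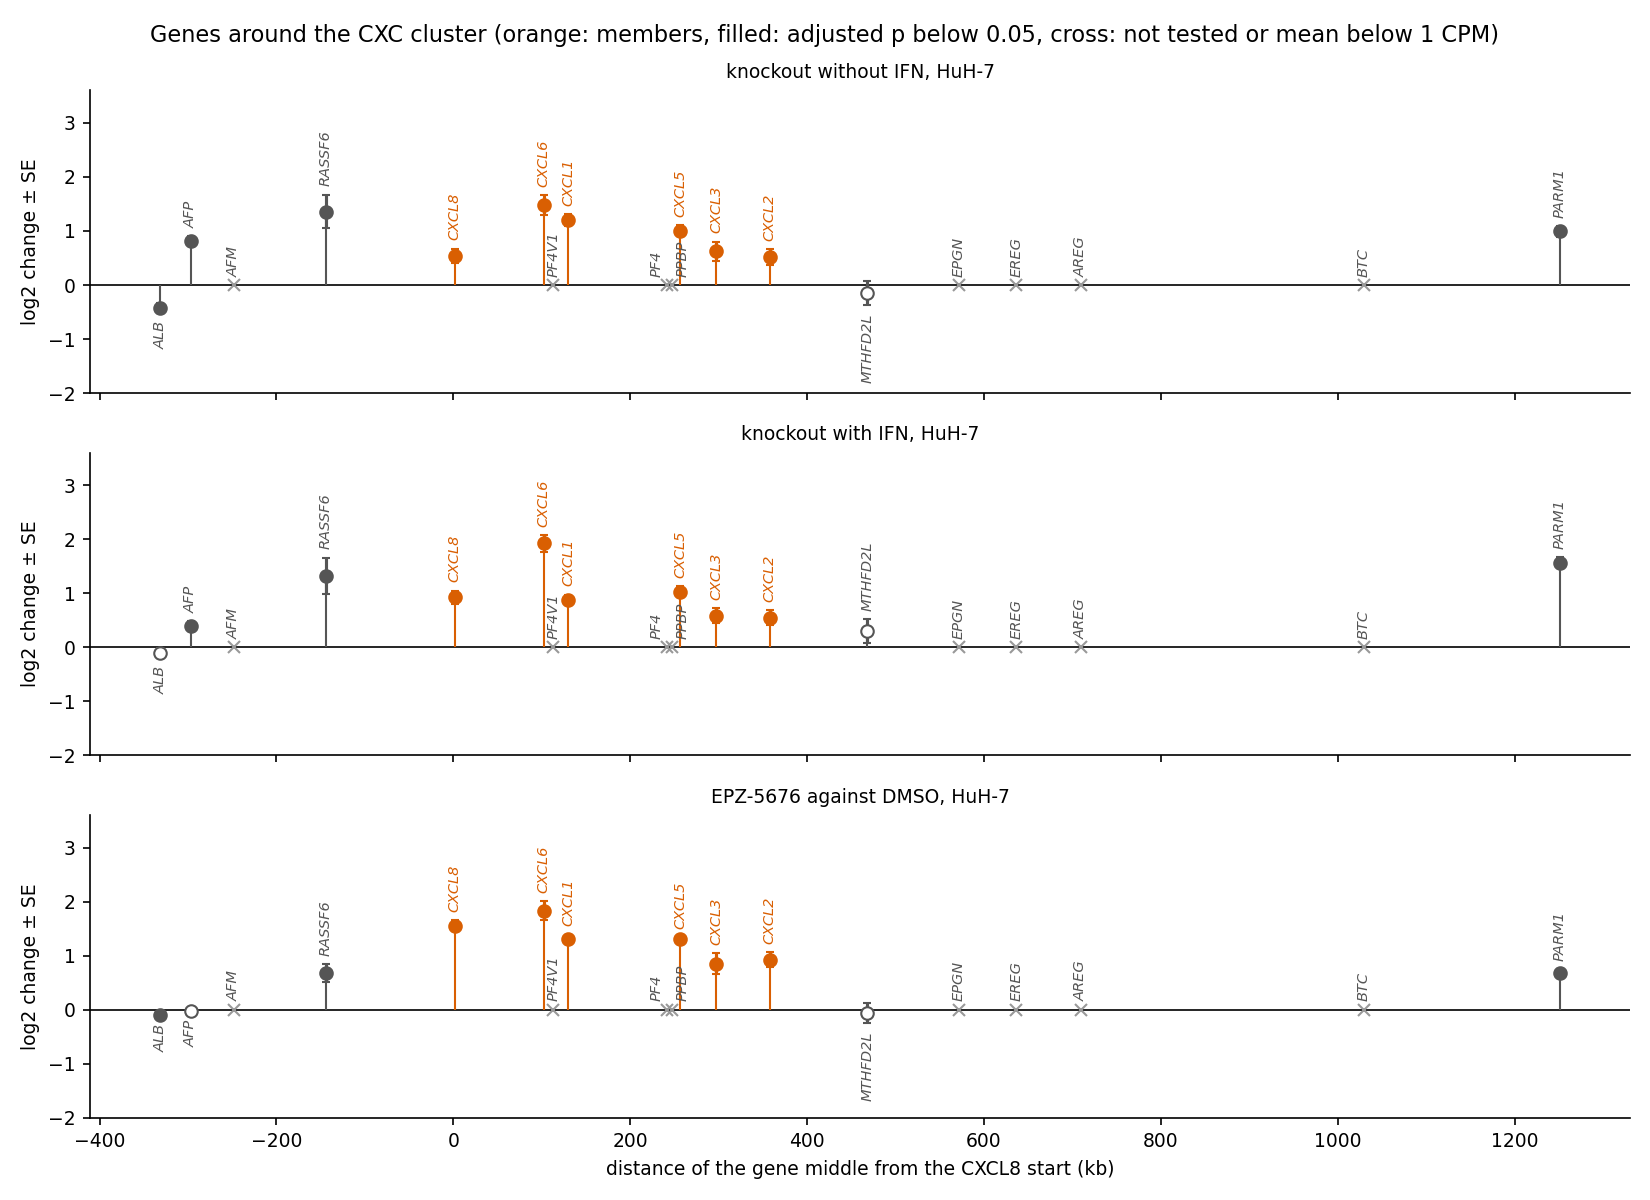
Log2 changes of the genes of the CXC region on chromosome 4 in HuH-7 against their distance in kb from the start of CXCL8, for knockout without IFN, knockout with IFN and EPZ-5676; orange points are the chemokines, and crosses mark genes not tested or below a mean of 1 CPM. The 6 chemokines lie above 0 in all 3 panels, with PARM1 and RASSF6 beside them and ALB below 0 without IFN.

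Levels of the members were also compared library by library. Log2 levels were centred within each IFN setting but not within genotype, so the values in HuH-7 contain the knockout difference that all 7 share. With this centring, Pearson's r between members over the 12 guide libraries was 0.794 to 0.975 with a median of 0.891 over 21 pairs. CXCL5 and CXCL6 were the closest pair. Outside the list, the genes nearest to CXCL5 were MUC13 and C4BPA (r = 0.995 each), those nearest to CCL20 began with TSPAN3 (0.991), and CXCL2 was nearest to PI3 (0.974) and LCN2 (0.970). CXCL1 was nearest to GBP5 (0.987), CXCL3 to RASSF10 (0.978), CXCL6 to FRMD4A (0.988) and CXCL8 to SLC39A8 (0.981). In the 18 mouse libraries, centred within lines and likewise not within genotype, r between members was lower, at 0.0557 to 0.870 with a median of 0.394 over 10 pairs. Cxcl3 and Cxcl5 were the closest mouse pair, and the gene nearest to Cxcl5 was Ptp4a2 (0.959).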

How the data were processed

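RNA was total RNA taken up in a VAHTS Universal V6 kit, per the labels' protocols. The authors deposited whole-number read counts per gene symbol; Trim Galore, HISAT2 2.2.1, SAMtools 1.9, DESeq2 1.36.0, hg38 and mm10 are named in the submitters' processing notes, and for the counting program and annotation the sources used here give no name. The drug and solvent files list symbols with a count of at least 1. Lines with a blank symbol (1721 in the Hepa1-6 sgNeg2 files and 1 in those of Hep53.4) were left out.

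Counts were tested with edgeR 4.0.16 in R 4.3.3 (filterByExpr with a minimum count of 10 and a minimum total of 15, TMM scaling, robust quasi-likelihood F test, Benjamini-Hochberg adjustment over all genes tested, called below 0.05). Separate fits held the 12 HuH-7 guide libraries, the 6 with EPZ-5676 or DMSO, and each mouse line with its 6. A joint fit of 18 mouse libraries served for differences between lines. Knockout pooled both guides, 4 libraries against 2. Within every pair of replicates counts differed by more than sampling noise (chi-square per degree of freedom 2.81 to 62.6). The p-values reflect the spread among libraries, which may be technical. Counting intervals are exact 95% intervals of counting error alone. Reads lacking molecular identifiers can be copies of 1 molecule, which would make these intervals too narrow.

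The members and gene lists were chosen with earlier results of these data known. Named list genes were, in each list, the 2 called genes of largest change whose mean was 1 CPM or more. Others were named after their values were seen. Likeness used log2(CPM + 0.5) of genes whose mean was 5 CPM or more, and the 3 nearest per member were listed. Alternatives were RLE scaling, DESeq2 1.42.0, no filter, a replicate block, guides as groups, single guides, smaller or joint fits, thinned IFN libraries, DMSO as control for IFN, RNAs without a poly(A) tail left out, and each library left out. The scripts were tested on simulated data.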

Additional observations from a re-analysis of the deposited data

Results flagged for a closer look

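For each gene in each pooled knockout group of 4 libraries, 29 combinations in all, the extreme library was set against the others, and 3 stood apart, where chance gives about 1 in 20. These were CXCL2 in HuH-7 knockout without IFN, where sg2 replicate 2 had 8.79 CPM, Cxcl1 in Hep53.4 knockout, where sg2 replicate 1 had 2.71 CPM, and Cxcl2 in Hepa1-6 knockout, where sg1 replicate 1 had 5.97 CPM.

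The knockout effect on CCL20 in HuH-7 differed with IFN (interaction -0.71 on the log2 scale). Between mouse lines it differed for Cxcl1 (0.92), Cxcl3 (0.93) and Cxcl5 (1.53) in Hepa1-6 against Hep53.4, with edgeR's test of the difference. Against LLC it differed for Cxcl3 in Hepa1-6 (-3.93), and in Hep53.4 for Cxcl1 (-0.62), Cxcl3 (-4.86) and Cxcl5 (-2.45). The fitted values of Cxcl3 against LLC rest on 2 control counts and depend on the prior count.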

How the results depend on the processing

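Of 1417 member values under alternatives, 1314 kept direction and call, 45 lost the call, 11 gained it and 47 changed sign, and no value that changed sign was called. The replicate numbers did not pair libraries (correlations of residuals -0.255 to 0.11 over 30 pairs of HuH-7 guide groups, 0.0856 to 0.126 over 3 pairs of the drug groups, and -0.0449 to 0.15 over 18 mouse pairs). With the number as a replicate block, CXCL3 in knockout without IFN (0.62, edgeR adjusted p = 0.0571) and CXCL2 between guides with IFN (0.0524) lost their calls, and no other member did. The count of members called for Hepa1-6 against LLC was 1, and 3 with no filter and with sg1 alone. Between guides with IFN it was 2, and 1 with DESeq2, no filter, the replicate block, or RNAs without a poly(A) tail left out. With each library left out, the count for knockout without IFN went down to 4. It never stayed at 7, since CXCL3 lost its call each time. For the interaction the counts were 0 to 1 (0 without sgNeg2 replicate 2). They were 2 to 4 in Hepa1-6 (2 without sgNeg2 replicate 1) and 1 to 2 in LLC (1 without sgNeg2 replicate 2). For Hepa1-6 against LLC they were 1 to 2. Between guides they were 0 to 2 without IFN, 0 to 1 with IFN and 1 to 2 in Hepa1-6. Calls were also lost for CXCL2 and CXCL3 in knockout with IFN, and for Cxcl1 in Hep53.4 against LLC, as given above.

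Signs changed (log2) for the interaction of CXCL3 (RLE 0.021, DESeq2 0.021, sg2 alone 0.069, RNAs without a poly(A) tail left out 0.066), CXCL2 (sg1 alone -0.070, thinned -0.034) and CXCL5 (sg2 alone -0.17). They changed for Ccl20 in Hep53.4 (sg2 alone -0.19), in Hepa1-6 minus Hep53.4 (sg1 alone -0.18), in Hepa1-6 minus LLC (sg2 alone 0.80) and in Hep53.4 minus LLC (sg2 alone 0.26), and for Cxcl2 there (sg1 alone 0.83). CCL20 between guides without IFN had 0.0031 with RLE, 0.0047 with DESeq2 and 0.0097 with RNAs lacking a poly(A) tail left out. With each library left out in turn, values that changed sign in some case ranged as follows. Between guides they were -0.087 to 0.081 for CCL20 and -0.043 to 0.10 for CXCL3 without IFN, -0.16 to 0.0077 for CXCL8 with IFN, -0.021 to 0.14 for Cxcl2 in Hepa1-6, -0.061 to 0.13 for Cxcl3 in Hep53.4, and -0.47 to 1.00 for Cxcl3 and -0.61 to 0.29 for Cxcl5 in LLC. In the interaction they were -0.033 to 0.15 for CXCL2, -0.21 to 0.20 for CXCL3 and -0.044 to 0.11 for CXCL5. For Ccl20 they were -0.11 to 0.34 in Hep53.4, -0.066 to 0.40 in Hepa1-6 minus Hep53.4, -1.47 to 0.32 in Hepa1-6 minus LLC and -1.60 to 0.18 in Hep53.4 minus LLC. For Cxcl2 they were -1.04 to 0.44 in LLC, -2.69 to 2.30 in Hepa1-6 minus Hep53.4 and -1.28 to 3.75 in Hep53.4 minus LLC. The cause was not tested. Depth limits Cxcl2 in Hep53.4 and Cxcl3, Cxcl5 and Ccl20 in LLC, where counts per library were few.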
